A study of Homo sapiens with 31 samples.

Results

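The genes that repair alkylated and crosslinked DNA were followed through xenograft tumours of the prostate carcinoma line PC3 that had or had not received cyclophosphamide (CPA), an alkylating drug. The set held 33 named genes of 5 repair branches, chosen by the role of their proteins. All 33 were measured, each by 1 probe set that carries that gene symbol alone, among 17314 genes in all. Total RNA was read on 31 arrays in 8 groups of line and treatment. The groups were D4 with CPA, D4 control, D3 with CPA, D3 control, A3 with CPA, A3 control, wt with CPA and wt control, with 4 arrays each except A3 control, which had 3. The wt line was PC3 as cultured, without passage through animals. A3, D3 and D4 were each a clone re-isolated from passaged tumours, and by the labels D3 and D4 resist CPA while A3 and wt are sensitive to it. Treated animals received 120 mg/kg CPA intraperitoneally once the tumours averaged 30 mm3, and the controls received none. PC3 is p53-null, so every group shares that loss. Each line stands for itself alone: a difference between A3 and the resistant pair is one between single clones, and resistance and other clonal differences cannot be told apart.

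CPA is turned into its active form in the liver, and the resulting mustard adds alkyl groups to DNA bases and joins the strands of the helix to each other. Small base lesions are undone directly or by base excision, bulky ones by nucleotide excision. A crosslink that stops a replication fork is marked by the Fanconi proteins, cut free by nucleases and rebuilt by homologous recombination, and many genes of these last branches are known to be expressed mainly in S phase. Whether the arrays of a group came from separate animals is not spelled out, so every p-value speaks of sample-to-sample spread, which may be partly technical. In bulk tumour RNA, fewer cells of a type and less RNA per cell cannot be told apart. Of the epithelial and prostate carcinoma list 8 of 10 genes were measured, and the mean log2 level of the list per array lay between 8.92 and 9.30. The lists of endothelial, fibroblast, myeloid and erythroid genes lay between 5.40 and 6.82. Distances of an array from its group mean over all genes ran between 0.103 and 0.211 log2 units. The 4 farthest arrays, at 0.176 and above, were D4 control replicates 1 and 4, A3 control replicate 2 and D3 CPA replicate 5.

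**Figure D1:**
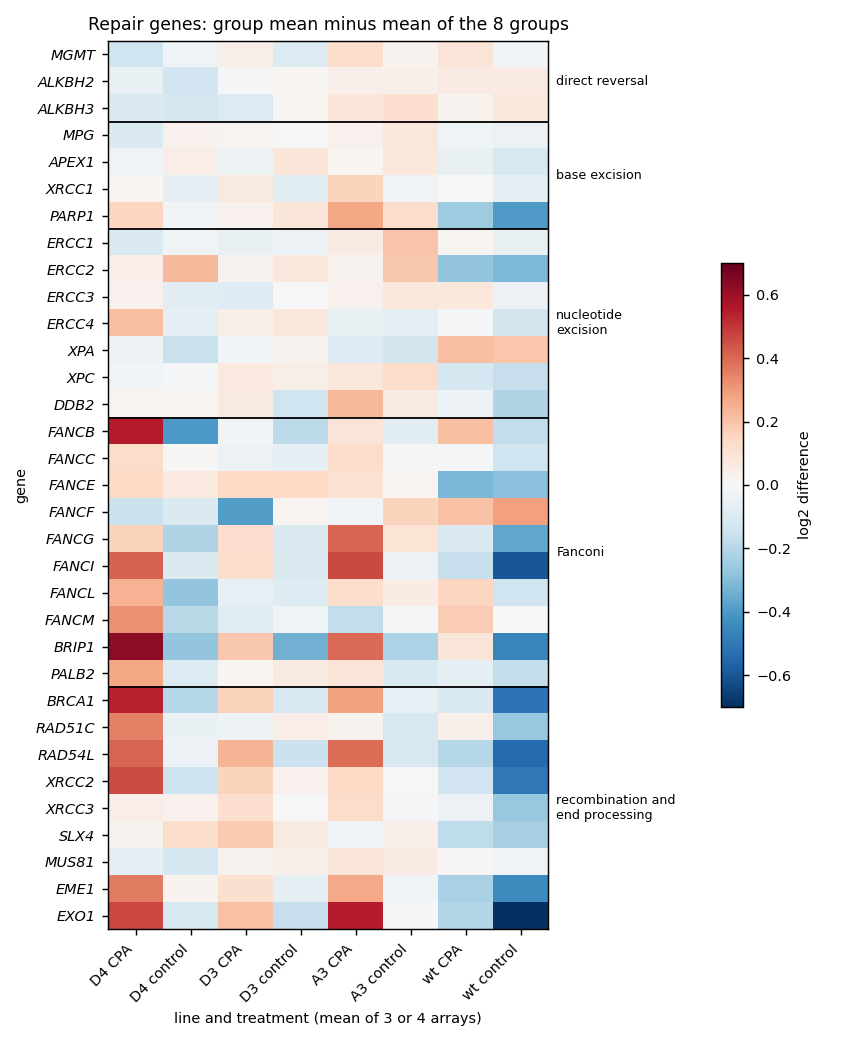
Heat map of the 33 repair genes (rows, by branch) in the 8 groups (columns); colour is the group mean of the log2 level minus the mean of the 8 group means for that gene, red for higher and blue for lower. EXO1, RAD54L, FANCI, BRCA1 and BRIP1 are reddest in CPA-treated D4 and A3 and bluest in wt controls, while the direct reversal genes stay pale in every column.

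CPA-treated tumours held more RNA of several recombination and Fanconi genes than the controls of their own line, and no direct reversal or base excision gene was called. With the CPA difference averaged over the 4 lines, 11 of the 33 genes were called at an adjusted p under 0.05, 10 of them higher and 1 lower, where 2.33% of all genes were called (1.18% higher and 1.15% lower). This average was added as a comparison after the data had been seen. By branch, 6 of 9 recombination and end processing genes rose, 3 of 10 Fanconi genes rose and 1 fell, 1 of 7 nucleotide excision genes rose, and 0 of 4 base excision and 0 of 3 direct reversal genes were called. The median log2 differences of these branches were 0.25, 0.19, 0.02, 0.04 and 0.01 in the same order, against 0.00 over all genes. Of the 33 genes 14 (42.4%) had a higher mean with CPA in each of the 4 lines and 1 (3.03%) a lower one, against 7.20% and 7.05% of all genes. The count of called members was 9 to 13 when any 1 array was left out, and 9 without the 4 farthest arrays together.

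The strongest member by p was RAD54L, a DNA motor protein of homologous recombination. Its log2 level was 8.45, 8.45, 8.41 and 8.26 in D4 with CPA, against 7.63, 8.03, 8.03 and 8.06 in D4 controls. In D3 RAD54L stood at 8.23, 8.08, 8.28 and 8.27 with CPA, against 7.72, 7.94, 7.78 and 7.87 in controls. No CPA array of these clones fell within the control range. In A3 it was 8.45, 8.27, 8.24 and 8.50 with CPA, against 7.82, 7.96 and 7.85 in controls, and in wt 7.94, 7.82, 7.55 and 7.81 with CPA, against 7.57, 7.42, 7.34 and 7.43 in controls. The A3 groups were also apart, and in wt the lowest CPA array lay just under the highest control. Averaged over the lines, RAD54L was 1.34-fold higher with CPA (log2 difference 0.42 ± 0.05 SE, adjusted p = 5.57e-07).

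EXO1, an exonuclease that trims DNA ends for recombination and also serves mismatch repair, was called in the same lines. EXO1 had log2 levels of 9.94, 10.11, 9.70 and 10.04 in D4 with CPA, against 9.21, 9.49, 9.23 and 9.54 in D4 controls. In A3 it was 9.87, 10.05, 10.08 and 10.13 with CPA, against 9.54, 9.40 and 9.47 in controls. In both clones every CPA array exceeded every control. In D3 the level was 9.68, 9.68, 9.52 and 9.88 with CPA, against 9.36, 9.43, 9.14 and 9.36 in controls, again apart, whereas in wt 9.31, 9.40, 8.95 and 9.45 with CPA overlapped 8.43, 8.81, 8.66 and 9.09 in controls. The averaged difference was 0.51 ± 0.06 SE (1.42-fold, adjusted p = 1.79e-06).

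BRCA1, a ubiquitin ligase subunit that directs breaks into recombination, was higher by 0.44 ± 0.08 SE (1.36-fold, adjusted p = 0.000645). BRCA1 had log2 levels of 8.61, 8.52, 8.14 and 8.39 in D4 with CPA, against 7.54, 7.95, 7.21 and 8.01 in D4 controls. These groups were apart, but in D3, A3 and wt the CPA and control arrays overlapped, with means of 8.04 with CPA against 7.77 in controls of D3, 8.16 with CPA against 7.82 in controls of A3 and 7.77 with CPA against 7.36 in controls of wt. EME1, the partner of the crosslink nuclease MUS81, rose by 0.25 ± 0.05 SE (adjusted p = 0.00123). EME1 had log2 levels of 7.76, 7.70, 7.56 and 7.63 in D4 with CPA, against 7.34, 7.51, 7.33 and 7.12 in D4 controls, and in the other lines 1 control array reached into the CPA range. MUS81 itself differed by 0.03 ± 0.04 SE (adjusted p = 0.922), and the scaffold SLX4, which docks such nucleases, by 0.00 ± 0.05 SE (adjusted p = 0.993).

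XRCC2, RAD51C and XRCC3, which act in strand exchange during recombination, were not all called. XRCC2 rose by 0.31 ± 0.08 SE (adjusted p = 0.0318) and RAD51C by 0.19 ± 0.05 SE (adjusted p = 0.0254), whereas XRCC3 differed by 0.12 ± 0.05 SE without passing (adjusted p = 0.314). XRCC2 was the least steady of the called members. Its call held in 16 of 31 fits that each left out 1 array, with differences of 0.28 to 0.35 and adjusted p up to 0.075, and ended without the 4 farthest arrays (0.23, adjusted p = 0.18). The arrays whose loss ended it came from all 8 groups and were wt control 1 and 3, wt CPA 1 and 2, A3 control 2 and 4, A3 CPA 2 and 4, D3 control 1 and 3, D3 CPA 3, D4 control 1 and 4, and D4 CPA 2 and 5. The RAD51C call ended without A3 control replicate 2 or 4 (adjusted p up to 0.056) and without the 4 farthest arrays (0.17, adjusted p = 0.0938).

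Among the Fanconi genes the largest averaged difference was that of BRIP1, the helicase also called FANCJ, which works with BRCA1. It rose by 0.64 ± 0.10 SE (1.56-fold, adjusted p = 0.000141). Its log2 level was 9.42, 9.42, 9.15 and 9.40 in D4 with CPA, against 8.52, 8.72, 7.70 and 8.87 in D4 controls, and 8.89, 8.92, 8.66 and 8.75 in wt with CPA, against 7.99, 8.49, 7.97 and 8.58 in wt controls. Neither pair overlapped. In D3 it was 8.88, 9.06, 8.76 and 8.93 with CPA, against 8.37, 8.64, 7.99 and 8.58 in controls, also apart, and in A3 8.68, 9.22, 9.41 and 9.18 with CPA overlapped 8.81, 7.96 and 8.72 in controls. Control arrays spread widely for this gene, with an SD of 0.52 in D4 controls against 0.13 in D4 with CPA. Without the 4 farthest arrays the averaged difference was 0.49 (adjusted p = 0.000621).

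FANCI, which forms with FANCD2 the clamp that is ubiquitinated at a stalled fork, rose by 0.41 ± 0.06 SE (1.33-fold, adjusted p = 1.61e-05). FANCI had log2 levels of 9.85, 9.95, 9.70 and 9.94 in D4 with CPA, against 9.23, 9.43, 9.18 and 9.57 in D4 controls, and 9.82, 9.88, 9.83 and 10.11 in A3 with CPA, against 9.61, 9.25 and 9.37 in A3 controls. The groups were apart in D4, D3 and A3 and overlapped in wt. FANCG, a member of the core complex that performs this ubiquitination, rose by 0.29 ± 0.04 SE (1.22-fold, adjusted p = 6.57e-05). FANCG had log2 levels of 8.13, 7.94, 8.06 and 7.90 in wt with CPA, against 7.79, 7.72, 7.79 and 7.71 in wt controls, and 8.68, 8.45, 8.51 and 8.44 in A3 with CPA, against 8.14, 8.17 and 8.31 in A3 controls. The groups were apart in wt, A3 and D3, while in D4 a CPA array at 8.04 lay below a control at 8.11.

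The rest of the core complex was mostly not called. FANCF, its adaptor subunit, was the 1 member that fell, by 0.18 on the log2 scale (SE 0.05, adjusted p = 0.0254). Its log2 level was 6.59, 6.61, 6.65 and 6.40 in D3 with CPA, against 6.85, 6.97, 7.13 and 6.92 in D3 controls, which did not overlap. In the other lines the arrays overlapped, with means of 6.80 against 6.85 in D4, 6.93 against 7.11 in A3 and 7.16 against 7.24 in wt for CPA against control. The averaged FANCF call ended without A3 control replicate 1 (adjusted p = 0.0636). FANCB differed by 0.41 ± 0.12 SE (adjusted p = 0.0534), FANCL, the ubiquitin ligase subunit, by 0.22 ± 0.08 SE (adjusted p = 0.163), FANCC by 0.11, FANCM, the anchoring helicase-like subunit, by 0.12 and FANCE by 0.03, and none of these passed. PALB2, which joins BRCA1 to BRCA2, differed by 0.16 ± 0.05 SE (adjusted p = 0.0659).

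Promoter sequences are shown for members that rose together under CPA and for 1 that did not, because the S phase genes of human cells are known to carry binding sites for the E2F factors near their starts. The RefSeq table (GRCh38.p14) held 32 of the 33 members, all but FANCI, with 40 starts. For the counts, the window searched ran from 250 bases before each start to 50 bases after it. A counted match can therefore lie after the start. The sequences shown leave out those 50 bases. The letters TTNNCGC, with G or C at each N, were searched on both strands. They stand in capitals, in reverse complement where the match lies on the other strand, and each sequence runs 5′ to 3′ on the gene's strand over the 250 bases before the start. RAD54L lies at chr1:46247438-46247687 on the plus strand, BRCA1 at chr17:43125365-43125614 on the minus strand, FANCG at chr9:35079943-35080192 on the minus strand, EME1 at chr17:50372979-50373228 on the plus strand and MGMT at chr10:129466991-129467240 on the plus strand.
RAD54L: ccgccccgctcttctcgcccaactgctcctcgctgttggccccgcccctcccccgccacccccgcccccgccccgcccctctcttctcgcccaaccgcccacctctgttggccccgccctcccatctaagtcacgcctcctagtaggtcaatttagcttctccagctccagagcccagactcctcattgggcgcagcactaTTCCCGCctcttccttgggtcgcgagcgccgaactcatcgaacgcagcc
BRCA1: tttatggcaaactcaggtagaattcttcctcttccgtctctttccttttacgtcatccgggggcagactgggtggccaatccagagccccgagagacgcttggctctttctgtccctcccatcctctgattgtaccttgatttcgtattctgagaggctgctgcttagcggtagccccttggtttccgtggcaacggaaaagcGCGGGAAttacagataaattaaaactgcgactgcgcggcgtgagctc
FANCG: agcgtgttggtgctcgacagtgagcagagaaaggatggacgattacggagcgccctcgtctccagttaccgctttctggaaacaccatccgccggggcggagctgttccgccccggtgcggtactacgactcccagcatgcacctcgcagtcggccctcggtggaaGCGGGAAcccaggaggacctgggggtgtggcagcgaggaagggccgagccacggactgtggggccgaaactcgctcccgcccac
EME1: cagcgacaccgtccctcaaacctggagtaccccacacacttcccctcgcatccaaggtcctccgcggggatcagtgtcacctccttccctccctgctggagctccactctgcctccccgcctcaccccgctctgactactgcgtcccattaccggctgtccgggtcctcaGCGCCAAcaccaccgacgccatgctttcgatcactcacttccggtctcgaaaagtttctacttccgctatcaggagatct
MGMT: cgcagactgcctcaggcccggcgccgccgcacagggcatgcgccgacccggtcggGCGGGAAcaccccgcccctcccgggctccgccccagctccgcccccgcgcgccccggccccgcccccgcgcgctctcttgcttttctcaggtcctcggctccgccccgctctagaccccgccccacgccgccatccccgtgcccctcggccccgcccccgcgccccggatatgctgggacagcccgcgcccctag

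Counted from the start, the first capital is at position -49 in RAD54L, -47 in BRCA1, -84 in FANCG, -80 in EME1 and -195 in MGMT. Every sequence shown is of a start with a match. The other BRCA1 start held none, and RAD51C, also called higher, held none at either of its starts. At least 1 window held such letters in 8 of the 9 CPA-raised members with a window (88.9%), in 11 of the 23 other members (47.8%) and in 15.3% of 27305 genes. Those 27305 are all genes of the RefSeq table, not the 17314 measured genes, and base composition was not matched. Counted per window the shares were 9 of 14 (64.3%), 12 of 26 (46.2%) and 13.0% of 35116. The raised members had 14 starts for 9 genes and the others 26 for 23. Windows of the same gene can overlap, as those of RAD54L did. With a further T in front, of which every match is also a match of the shorter letters, the shares were 2 of 9 (22.2%), 2 of 23 (8.70%) and 3.99%. The shorter letters were searched after the longer ones had been counted. The CHR letters TTTGAA or TTCGAA were in 2 of 9 (22.2%), 3 of 23 (13.0%) and 19.5%, and CCAAT in 4 of 9 (44.4%), 11 of 23 (47.8%) and 39.7%. These are matches of letters and not measured binding, and MGMT shows that a match stood also beside a gene that was not called.

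**Figure D2:**
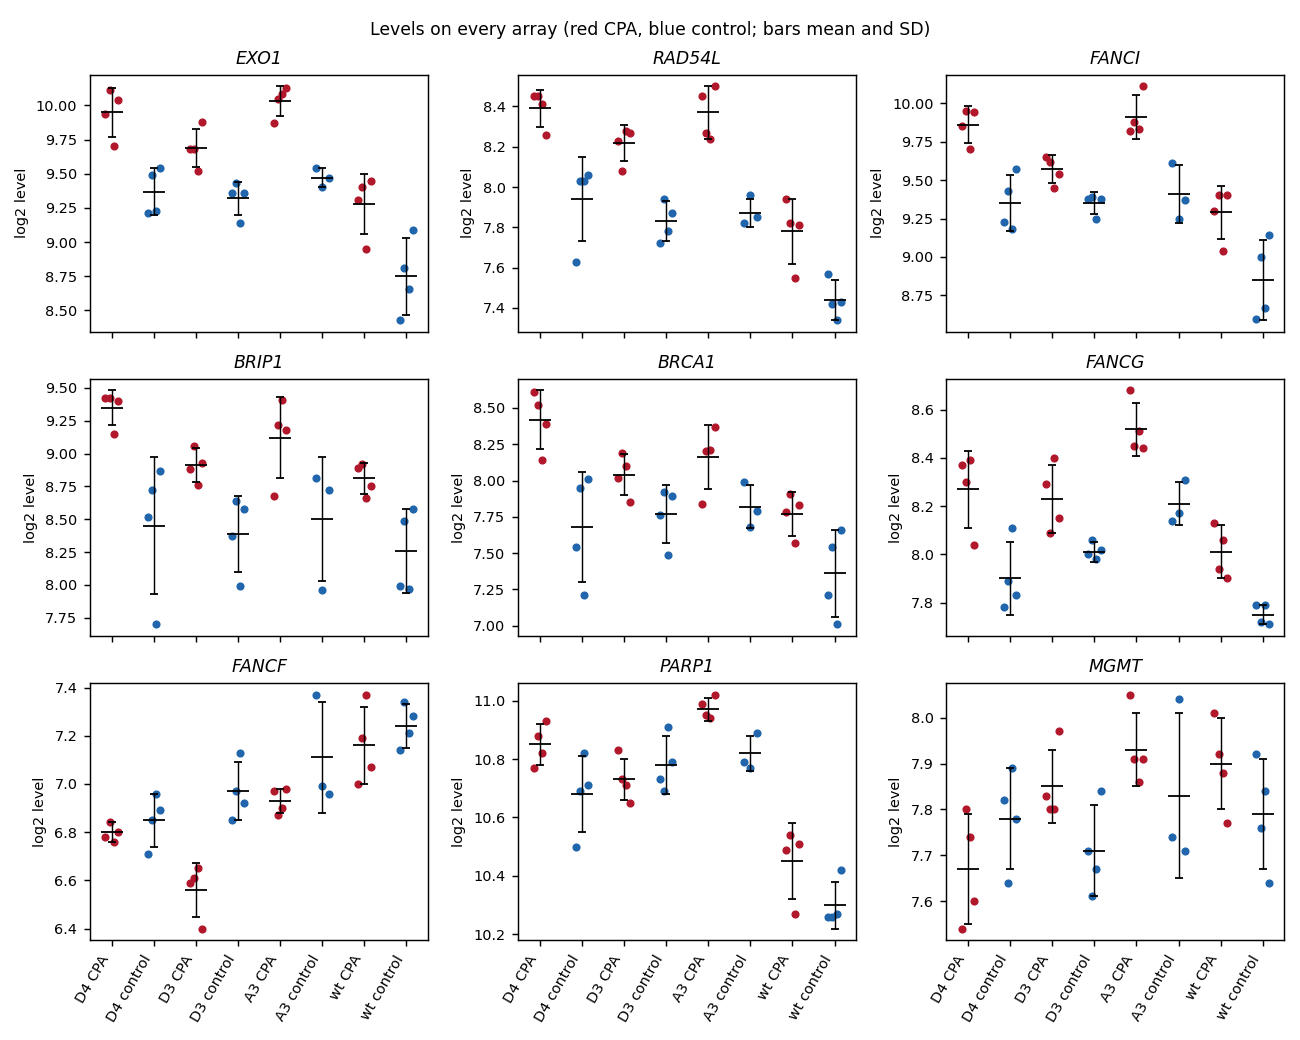
Log2 level (vertical axis) of 9 repair genes on every array (points, red for CPA and blue for control) in the 8 groups (horizontal axis), with the mean and SD of each group as bars; each panel has its own scale. EXO1, RAD54L and FANCI sit higher with CPA in each line, FANCF is lowest in CPA-treated D3, the mean of PARP1 is lower in both wt groups than in every clone group, and the CPA and control arrays of MGMT overlap within each line.

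The direct reversal genes gave no call under CPA. MGMT, which takes alkyl groups off guanine and is spent in doing so, is the best known determinant of resistance to methylating drugs. Its log2 level was 7.54, 7.80, 7.74 and 7.60 in D4 with CPA, against 7.82, 7.64, 7.89 and 7.78 in D4 controls, and 8.01, 7.92, 7.88 and 7.77 in wt with CPA, against 7.92, 7.76, 7.84 and 7.64 in wt controls. The arrays overlapped in every line. The averaged difference was 0.06 ± 0.04 SE, with a 95% interval of -0.03 to 0.15 (adjusted p = 0.706). The demethylases ALKBH2 and ALKBH3, which oxidise methyl groups off adenine and cytosine, differed by 0.01 (95% interval -0.07 to 0.09) and -0.04 (-0.12 to 0.03).

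Base excision also gave no call. The glycosylase MPG, which removes alkylated purines, differed by -0.03 ± 0.04 SE, and the nuclease APEX1, which cuts the emptied site, by -0.05 ± 0.03 SE. The scaffold XRCC1 differed by 0.11 ± 0.04 SE (adjusted p = 0.141) and the break sensor PARP1 by 0.11 ± 0.04 SE (adjusted p = 0.164). In nucleotide excision DDB2, a damage sensor known as a p53 target in human cells, rose by 0.14 ± 0.03 SE (adjusted p = 0.0253) in these p53-null tumours. DDB2 had log2 levels of 8.26, 8.05, 8.08 and 8.07 in wt with CPA, against 7.87, 7.93, 8.04 and 7.96 in wt controls, and 8.57, 8.40, 8.27 and 8.33 in A3 with CPA, against 8.22, 8.21 and 8.23 in A3 controls. The arrays were apart in wt, A3 and D3 and overlapped in D4, where the means were 8.18 with CPA and 8.17 without. The other 6 genes of the branch, the sensor XPC, the scaffold XPA, the helicases ERCC2 and ERCC3 and the incision nuclease ERCC1 with ERCC4, differed by -0.09 to 0.09 and were not called.

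Taken line by line, 9 members rose with CPA in D4 and 0 fell, where 1.03% of all genes were called (0.664% higher and 0.364% lower). They were BRCA1 (0.74 ± 0.15 SE), RAD54L (0.45 ± 0.09 SE), EXO1 (0.58 ± 0.12 SE) and RAD51C (0.40 ± 0.09 SE) of recombination, and FANCI (0.51 ± 0.11 SE), BRIP1 (0.90 ± 0.20 SE), FANCG (0.37 ± 0.08 SE), PALB2 (0.38 ± 0.09 SE) and FANCB (0.95 ± 0.23 SE) of the Fanconi branch, with adjusted p of 0.015 to 0.0334. In A3 2 members rose, RAD54L (0.49 ± 0.10 SE, adjusted p = 0.0153) and EXO1 (0.56 ± 0.13 SE, adjusted p = 0.0435), where 0.352% of all genes were called (0.104% higher and 0.248% lower). In D3 FANCF fell by 0.40 on the log2 scale (SE 0.09, adjusted p = 0.0381) and 0 members rose, where 0.231% of all genes were called, all of them lower. In wt limma called 0 members, and 0.0462% of all genes were called (0.00578% higher and 0.0404% lower). At an unadjusted p under 0.05 there were 12 members. The share of all genes under that unadjusted threshold was not counted, here or in the comparisons below. The smallest adjusted p in wt was 0.136, for EXO1 (0.53 ± 0.12 SE). CPA and control arrays did not overlap for 9 members in D4, 8 in D3, 7 in A3 and 4 in wt, against 9.97%, 9.6%, 5.04% and 2.15% of all genes in the same order.

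FANCB shows what the D4 calls rest on. Its log2 level was 8.47, 8.62, 8.28 and 8.64 in D4 with CPA, against 7.30, 8.13, 6.75 and 8.02 in D4 controls. The groups did not overlap, but the controls alone spread over more than a log2 unit. PALB2 was 8.34, 8.27, 8.03 and 8.13 in D4 with CPA, against 7.59, 7.97, 7.80 and 7.90 in D4 controls, and RAD51C 8.29, 8.36, 8.31 and 8.52 in D4 with CPA, against 7.84, 8.08, 7.96 and 8.01 in D4 controls, both apart. D4 control replicate 4, the array farthest from its group over all genes, held the lowest D4 value of FANCB, BRIP1, BRCA1, FANCI, XRCC2 and FANCL, and replicate 1 the lowest of RAD54L, PALB2, RAD51C and EXO1. The D4 count was 0 without D4 control replicate 1, D4 CPA replicate 1 or D4 CPA replicate 2, was 2 without D4 control replicate 4 and was 3 without D4 CPA replicate 5. Without the 4 farthest arrays it was 0, with BRIP1 at 0.55 (adjusted p = 0.488), BRCA1 at 0.44 (adjusted p = 0.55) and FANCB at 0.43 (adjusted p = 0.72). The A3 count was 0 without A3 control replicate 1 or 4 or A3 CPA replicate 4 and 1 without any other single A3 array. The D3 count was 0 without any single D3 array other than control replicate 1, and the wt count was 1 without wt control replicate 4 or wt CPA replicate 3.

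The difference between lines was not called. A test of whether the CPA difference varied among the 4 lines called 0 of 33 members, with 4 at an unadjusted p under 0.05, and 0% of all genes. RAD51C had the smallest p in it (adjusted p = 0.33 by limma's F-test). D4 against the mean of the other lines, added after seeing the D4 count, called 0 members and 0% of all genes. At an unadjusted p under 0.05 there were 10 members. Without A3 control replicate 2 it called 1 member and 1182 of the 17314 genes. Without D4 control replicate 2 it called 1 member and 656 genes. The CPA difference in the resistant pair minus that in the sensitive pair called 0 members, with 0 at an unadjusted p under 0.05, and 0.00578% of all genes. In that last comparison RAD54L differed by 0.00 (95% interval -0.19 to 0.20), EXO1 by -0.07 (-0.32 to 0.18), BRIP1 by 0.12 (-0.30 to 0.54), FANCB by 0.29 (-0.18 to 0.77) and MGMT by -0.09 (-0.26 to 0.08). The intervals bound the size of any difference and do not show that the lines acted alike.

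**Figure D3:**
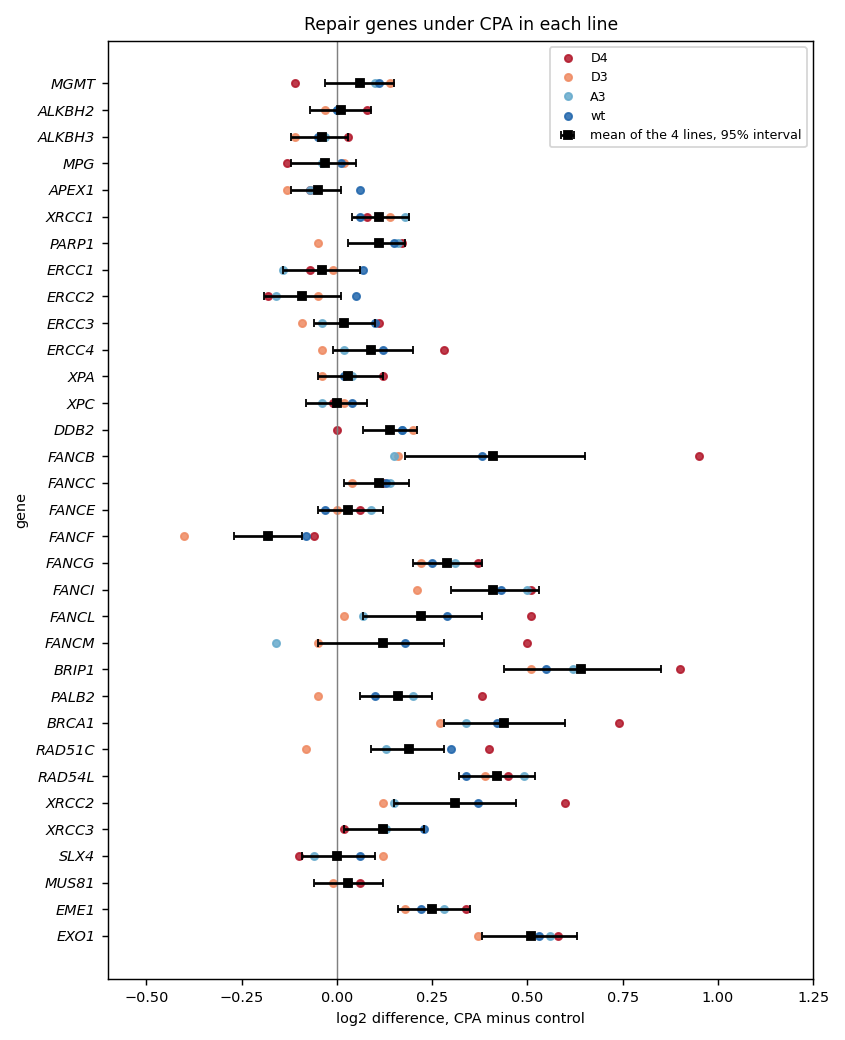
Log2 difference, CPA minus control (horizontal axis), of the 33 repair genes (vertical axis) in D4, D3, A3 and wt (coloured points) and as the mean of the 4 lines with its 95% interval (black). RAD54L, EXO1, BRIP1, FANCI and FANCG lie right of 0 in every line, the D4 point is the rightmost for FANCB, BRIP1 and BRCA1, and the intervals of the 3 direct reversal genes cross 0.

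Other repair and checkpoint genes gave calls in 4 of their 7 lists. Of 75 measured genes of these lists, 7 rose with CPA and 1 fell in the average over the lines. Over all genes 1.18% were called higher and 1.15% lower. The median difference of the 75 genes was 0.06. Of 12 other recombination genes 3 rose: the helicase BLM (0.44 ± 0.08 SE, adjusted p = 0.000798), the RAD54L relative RAD54B (0.42 ± 0.09 SE, adjusted p = 0.00791) and RAD51AP1 (0.31 ± 0.08 SE, adjusted p = 0.0442). Of 17 other base excision genes 2 rose, the flap nuclease FEN1 (0.29 ± 0.04 SE, adjusted p = 2.57e-05) and the ligase LIG1 (0.17 ± 0.04 SE, adjusted p = 0.00716), both of which also finish replicated DNA. Of 8 end joining genes 1 rose, the polymerase POLQ (0.48 ± 0.08 SE, adjusted p = 0.000233). Of 8 checkpoint genes CLSPN, which helps activate CHEK1, rose (0.38 ± 0.08 SE, adjusted p = 0.00866) and the kinase WEE1, which holds cells before mitosis, fell by 0.31 on the log2 scale (SE 0.07, adjusted p = 0.00488). CLSPN had 2 probe sets and WEE1 3, and these values are of the brightest set of each alone. Limma called 0 of 12 other nucleotide excision, 0 of 13 other Fanconi and crosslink and 0 of 5 mismatch repair genes.

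Proliferation genes were called in both directions under CPA. Of 18 listed genes 3 rose, RRM2 (0.40), CDC45 (0.33) and TYMS (0.24), which serve nucleotide supply and replication, and 9 fell. The kinase PLK1 fell by 1.06, cyclin B1 (CCNB1) by 0.86 and CDC20 by 0.63 on the log2 scale, all of which act in mitosis, and the median of the list was -0.24. The list did not divide by function throughout. MCM5, also a replication gene, had lower means with CPA than in controls: 9.34 against 9.49 in D4, 9.20 against 9.38 in D3, 9.60 against 9.80 in A3 and 8.93 against 8.96 in wt. The mitotic kinase AURKB had means of 8.54 against 8.56, 8.54 against 8.58, 8.57 against 8.61 and 8.12 against 8.13 in the same order. The mean log2 level of the list per array was 9.15 to 9.27 in D4 with CPA against 9.26 to 9.48 in D4 controls and 8.87 to 9.06 in D3 with CPA against 9.29 to 9.42 in D3 controls. It was 9.17 to 9.21 in A3 with CPA against 9.46 to 9.58 in A3 controls and 8.52 to 8.76 in wt with CPA against 8.68 to 9.06 in wt controls. The part of this list in the repair differences was not tested. The array carries human probes, so RNA of the animal's own cells would be read only where it cross-hybridises, and the lists of human endothelial, fibroblast, myeloid and erythroid genes say little about host cells. Of these lists 0 of 10 endothelial, 0 of 10 fibroblast, 0 of 8 myeloid and 0 of 2 erythroid genes were called in the average, and of the epithelial list 2 of 8 fell.

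**Figure D4:**
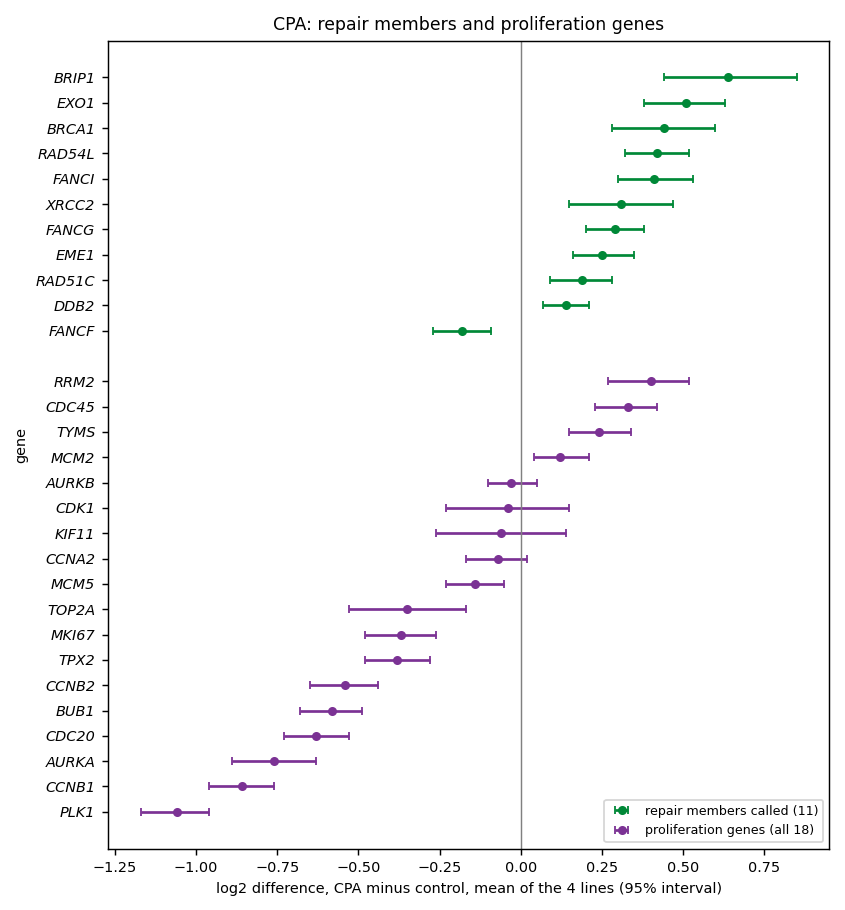
Log2 difference, CPA minus control, averaged over the 4 lines with 95% intervals (horizontal axis) for the 11 called repair genes (green) and all 18 proliferation genes (purple). Repair genes other than FANCF lie right of 0, as do RRM2, CDC45, TYMS and MCM2, while mitotic genes such as PLK1 and CCNB1 lie far left.

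Each clone also had more members called higher than lower against unpassaged PC3, with and without the drug. In untreated tumours 10 members were higher and 3 lower in D4 than in wt (20.1% of all genes called, 9.22% higher and 10.9% lower), 12 higher and 1 lower in D3 (18.1%, 9.69% higher and 8.4% lower), and 13 higher and 1 lower in A3 (18.5%, 10.1% higher and 8.36% lower). In CPA-treated tumours 12 were higher and 2 lower in D4 (15.1%, 7.54% higher and 7.59% lower), 7 higher and 1 lower in D3 (16.4%, 6.28% higher and 10.1% lower), and 9 higher and 1 lower in A3 (16.3%, 6.74% higher and 9.6% lower). Clone and wt arrays did not overlap for 13, 14 and 15 members in untreated D4, D3 and A3, against 18.4%, 22.1% and 24.2% of all genes, and for 17, 13 and 13 members with CPA, against 20.7%, 24.2% and 19.3%. The 3 clones were set against the same wt arrays, so their agreement is not independent. Untreated and treated comparisons share no arrays: 9 members were called the same way in both for D4 (69.2% of the untreated and 64.3% of the treated calls), 8 for D3 (61.5% and 100%) and 10 for A3 (71.4% and 100%), and 0 the opposite way. These overlaps were not counted over all genes, so they cannot be called particular to repair genes. Without wt CPA replicate 3 the count in CPA-treated D3 was 5 and not 8.

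Members higher in all 6 comparisons were PARP1, ERCC2, FANCE, RAD54L, EME1 and EXO1. The share of all genes higher in all 6 was not counted. Of these members RAD54L kept each call whichever 1 array was left out. In CPA-treated D3 the calls of PARP1, EME1 and EXO1 ended without wt CPA replicate 3, that of EXO1 also without D3 CPA replicate 5 (adjusted p up to 0.109). FANCE in untreated A3 ended without A3 control replicate 2 (adjusted p = 0.105). PARP1 had log2 levels of 10.50, 10.69, 10.82 and 10.71 in untreated D4, 10.73, 10.69, 10.91 and 10.79 in untreated D3 and 10.79, 10.77 and 10.89 in untreated A3, against 10.26, 10.26, 10.27 and 10.42 in untreated wt. Every clone array exceeded every wt array. The differences were 0.38 ± 0.07 SE in D4 (adjusted p = 0.000313), 0.48 ± 0.07 SE in D3 (adjusted p = 2.1e-05) and 0.52 ± 0.08 SE in A3 (adjusted p = 1.97e-05).

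ERCC2, the helicase of the repair and transcription factor TFIIH, stood at 8.42, 8.46, 8.73 and 8.30 in untreated D4, 8.19, 8.30, 8.51 and 8.33 in untreated D3 and 8.32, 8.51 and 8.49 in untreated A3, against 8.12, 7.89, 7.88 and 7.85 in untreated wt. It was again apart in every clone, with differences of 0.54 ± 0.10 SE, 0.40 ± 0.10 SE and 0.50 ± 0.10 SE in D4, D3 and A3 (adjusted p of 0.000127, 0.00369 and 0.000815). With CPA the ERCC2 calls held in 4 of 8 fits for each clone (adjusted p up to 0.136). All 3 ended without wt CPA replicate 2 or 5, and each without the clone's own CPA replicates 1 or 2 in D4, 2 or 4 in D3 and 1 or 2 in A3. FANCE, the core complex subunit that binds FANCD2, stood at 7.34, 7.24, 7.44 and 7.20 in untreated D4, 7.34, 7.30, 7.43 and 7.41 in untreated D3 and 7.22, 7.37 and 7.14 in untreated A3, against 6.94, 6.92, 6.91 and 6.98 in untreated wt. It differed by 0.31 to 0.46 over the 6 comparisons. PARP1, ERCC2 and FANCE were thus called in each clone, and none of them was called under CPA in any line or in the average.

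RAD54L, EME1 and EXO1 were called both ways, in the clones and in the CPA average. Over the 6 clone comparisons RAD54L differed by 0.39 to 0.61, EME1 by 0.34 to 0.59 and EXO1 by 0.41 to 0.76. EXO1 averaged 9.37 ± 0.17 in untreated D4 (SD, n = 4), 9.32 ± 0.12 in untreated D3 (SD, n = 4) and 9.47 ± 0.07 in untreated A3 (SD, n = 3), against 8.75 ± 0.28 in untreated wt (SD, n = 4). FANCI was called higher in 5 of 6 comparisons and FANCG in 4, DDB2, XRCC2 and SLX4 in 3 each. With each array left out in turn, the FANCG call held in 4 of 8 fits in untreated D3 and 3 of 8 in CPA-treated D4. That of XRCC2 held in 3 of 7 in untreated A3 and 5 of 8 in untreated D3. The DDB2 call in untreated D4 and the SLX4 call in untreated D3 each held in 6 of 8. The other calls of these genes held in every such fit. APEX1, BRCA1 and RAD51C were called higher in 2 comparisons each, and XPC, PALB2 and XRCC3 in 1 each. BRIP1, with the largest averaged CPA difference of any member, was called in 0 of the 6, with differences of 0.10 to 0.54.

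Fewer members were lower in the clones. XPA, which holds the nucleotide excision complex together, stood at 8.47, 8.69, 8.40 and 8.69 in untreated D4 and 8.77, 8.38 and 8.62 in untreated A3, against 8.80, 8.97, 8.85 and 9.00 in untreated wt. It fell by 0.35 in D4 (SE 0.08, adjusted p = 0.00315) and by 0.32 in A3 (SE 0.09, adjusted p = 0.0119), each on the log2 scale, and the arrays were apart. Without A3 control replicate 2 the A3 difference was -0.21 (adjusted p = 0.148). With CPA, XPA was called lower in A3 (-0.30, ended without A3 CPA replicate 1) and in D4 (-0.24, adjusted p = 0.0453, ended without any 1 of its 8 arrays). In D3 it differed by -0.17 ± 0.08 SE untreated (adjusted p = 0.186) and -0.23 ± 0.08 SE with CPA (adjusted p = 0.0585). FANCF was lower in D3 and D4 under both treatments. Untreated, it stood at 6.71, 6.85, 6.96 and 6.89 in D4 and 6.85, 6.97, 7.13 and 6.92 in D3, against 7.14, 7.34, 7.21 and 7.28 in wt, which was apart from both clones. The untreated D3 call of FANCF held in 3 of 8 fits that each left out 1 array (adjusted p up to 0.0942, with wt control replicate 2 or 4 or D3 control replicate 1, 2 or 5 ending it), the D4 call in 8 of 8. With CPA FANCF fell by 0.60 on the log2 scale in D3 (SE 0.09, adjusted p = 1.85e-05) and by 0.36 in D4 (SE 0.09, adjusted p = 0.00435). ALKBH3 was called lower in 1 of the 6 comparisons, untreated D4 (-0.20 ± 0.07 SE, adjusted p = 0.0449), and that call held in 3 of 8 such fits (adjusted p up to 0.191, with wt control replicate 2, 3 or 4 or D4 control replicate 1 or 5 ending it).

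The proliferation list was higher in the clones as well. In untreated tumours 15 of its 18 genes were called higher in D4, 14 in D3 and 16 in A3, and 0 lower, with list medians of 0.56, 0.49 and 0.67. The medians of the 33 repair members were 0.15, 0.20 and 0.19 in the same order, and those of all genes 0.05, 0.01 and 0.04. By branch the recombination genes had the highest repair medians, at 0.36, 0.38 and 0.43, and direct reversal the lowest, at -0.19, -0.06 and 0.04. Whether the proliferation genes account for any of this was not tested. Over all genes 9.22% were called higher and 10.9% lower in untreated D4, 9.69% and 8.4% in D3, and 10.1% and 8.36% in A3. Of the 75 other repair and checkpoint genes 16 were higher and 5 lower in untreated D4, 16 higher and 5 lower in D3 and 21 higher and 3 lower in A3. Among them the Fanconi ubiquitin-conjugating enzyme UBE2T was higher by 0.53, 0.58 and 0.66 on the log2 scale in D4, D3 and A3, and the bypass polymerase REV1 was lower, with differences of -0.37, -0.43 and -0.43.

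**Figure D5:**
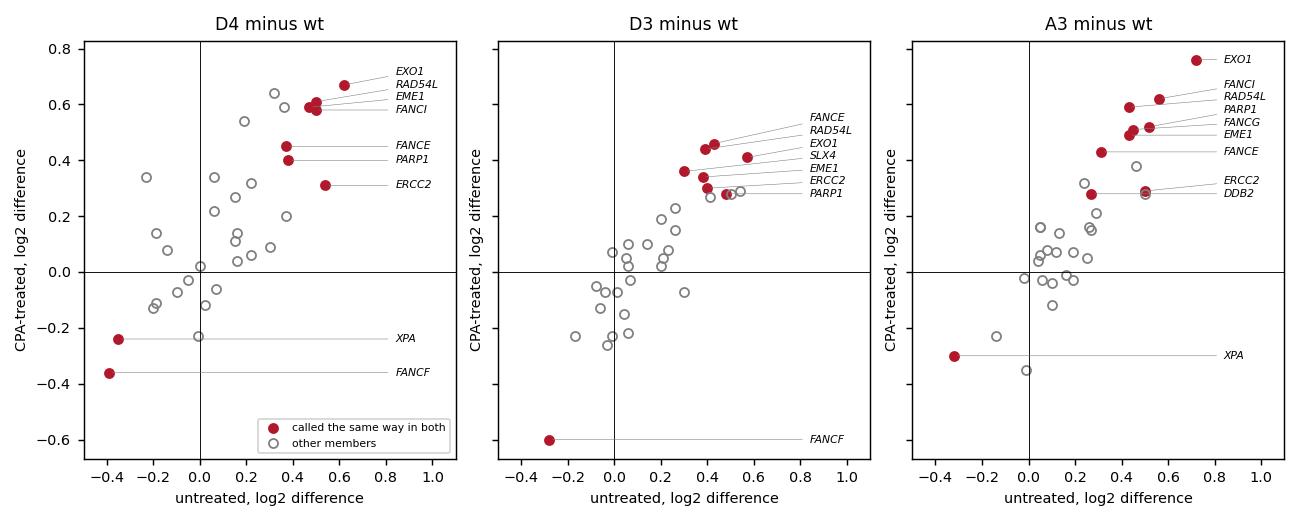
Log2 difference from wt of the 33 repair genes in D4, D3 and A3 (panels), in untreated (horizontal axis) against CPA-treated tumours (vertical axis); red points are members called the same way in both. EXO1, RAD54L, EME1, FANCE, PARP1 and ERCC2 lie in the upper right of each panel, XPA and FANCF are the red points at the lower left.

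No member was called higher in the resistant clones than in the sensitive clone A3. In untreated tumours limma called 0 members between D3 and D4 together and A3, with 4 at an unadjusted p under 0.05, where 3.89% of all genes were called (1.85% higher and 2.04% lower). FANCG came closest, at -0.25 ± 0.08 SE (adjusted p = 0.087). MGMT differed by -0.09 (95% interval -0.25 to 0.08), RAD54L by 0.01 (-0.17 to 0.19), EXO1 by -0.12 (-0.36 to 0.11) and PARP1 by -0.09 (-0.23 to 0.06). The median over members was -0.07, against -0.01 over all genes. The arrays did not overlap for 1 member, against 4.94% of all genes. Array weights gave 3 calls in place of 0, all 3 with the resistant clones below A3. Leaving out D4 control replicate 4 gave 1, where 819 of the 17314 genes were called.

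With CPA, D3 and D4 together fell below A3 in 3 members and exceeded it in 0, where 8.1% of all genes were called (4.23% higher and 3.87% lower), and the arrays did not overlap for 4 members, against 4.26% of all genes. FANCG stood at 8.37, 8.30, 8.39 and 8.04 in D4 and 8.29, 8.09, 8.40 and 8.15 in D3, against 8.68, 8.45, 8.51 and 8.44 in A3, and fell by 0.27 on the log2 scale (SE 0.07, adjusted p = 0.0206). FANCF stood at 6.78, 6.84, 6.76 and 6.80 in D4 and 6.59, 6.61, 6.65 and 6.40 in D3, against 6.97, 6.87, 6.90 and 6.98 in A3, and fell by 0.25 (SE 0.08, adjusted p = 0.0396). All 8 resistant arrays lay below all 4 A3 arrays for both genes. DDB2 stood at 8.22, 8.19, 8.19 and 8.12 in D4 and 8.23, 8.16, 8.29 and 8.20 in D3, against 8.57, 8.40, 8.27 and 8.33 in A3, which overlapped, and fell by 0.20 (SE 0.06, adjusted p = 0.0331). The count was 0 without A3 CPA replicate 1 and 1 without A3 CPA replicate 2 or D4 CPA replicate 5. The FANCG call held in 11 of 12 fits that each left out 1 array, the DDB2 call in 8 (it ended without A3 CPA replicate 1 or 2, D3 CPA replicate 3 or D4 CPA replicate 5, with adjusted p up to 0.254) and the FANCF call in 3 (adjusted p up to 0.134, with any A3 CPA array, D3 CPA replicate 2 or 5 or D4 CPA replicate 1, 4 or 5 ending it). The replicate block and median centring each left FANCG alone called, and a fit restricted to the compared groups left FANCF alone. D4 against D3, untreated, gave 0 members, with 2 at an unadjusted p under 0.05, where 0.323% of all genes were called (0.0924% higher and 0.231% lower), and the arrays did not overlap for 1 member, against 4.68% of all genes.

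Of the 33 members 22 were called in at least 1 comparison and 11 in none. The share of all genes called in at least 1 comparison was not counted, so the 22 have no background beside them. The 11 were MGMT and ALKBH2 of direct reversal, MPG and XRCC1 of base excision, ERCC1, ERCC3 and ERCC4 of nucleotide excision, FANCC, FANCL and FANCM of the Fanconi branch, and MUS81. Their 8 group means spanned 0.15 log2 units in ERCC3 to 0.51 in FANCL. The widest spans among called members were 1.28 in EXO1, 1.09 in BRIP1 and 1.06 in both FANCI and BRCA1. EXO1 was lowest in wt controls at 8.75 ± 0.28 (SD, n = 4) and highest in A3 with CPA at 10.03 ± 0.11 (SD, n = 4), with D4 with CPA beside it at 9.95 ± 0.18 (SD, n = 4), a gap within their SDs.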

How the data were processed

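The deposited log2 values were made by the authors with RMA, per the submitters' processing notes; its software version is not given in the sources used here. RMA corrects background, forces arrays to a common distribution and summarises probes, so uniform shifts between arrays are removed. Per the labels' protocols, total RNA was extracted with Trizol. One planned array that the submitters called an outlier was not analysed here. Of 23989 probe sets 17624 carried 1 gene symbol, 411 several and 5954 none. The brightest set per gene gave 17314 genes.

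Groups were compared with limma 3.58.1 in R 4.3.3 (lmFit, eBayes) in 1 fit over 31 arrays with 8 group means (23 residual degrees of freedom). Benjamini-Hochberg adjustment ran over all genes, with calls at an adjusted p under 0.05. The median residual SD was 0.122 for members, and the number of arrays limits precision. Members, gene lists and tests were chosen with earlier results of these data known. Called members, up to 6 per direction and comparison by p, were to be given array by array, and up to 3 called genes per direction of other lists were named. On simulated data, changes of 0.5 log2 units were recovered in 57.0% to 98.5% and of 1 in 98.0% to 100% over 16 comparisons of 17314 genes. The simulated noise was drawn separately for each gene, without deviations shared across an array. These rates therefore do not measure recovery where a whole array deviates, and changes under 0.5 were not simulated. Alternatives were a replicate block, a variance trend, a fit restricted to the compared groups, array weights, median centring, further quantile normalization, all probe sets, a filter on the dimmest 30% of genes and each array left out in turn; leaving out the 4 farthest arrays was added after seeing the data.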

Additional observations from a re-analysis of the deposited data

Results flagged for a closer look

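In 10 of 231 groups of 4 arrays, 1 array of a member stood apart from the others by more than Dixon's 95% critical value allows; chance alone flags about 1 in 20 groups. The highest arrays were PARP1 at 10.42 in wt control replicate 4, ERCC1 at 7.88 in D3 control replicate 3, DDB2 at 8.26 in wt CPA replicate 1 and EME1 at 7.35 in D3 control replicate 2. The lowest were ERCC3 at 8.97 in wt control replicate 1, XPA at 8.68 and FANCI at 9.25 in D3 control replicate 3, FANCL at 6.84 and BRIP1 at 9.15 in D4 CPA replicate 4, and RAD54L at 7.63 in D4 control replicate 1.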

How the results depend on the processing

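Of 882 repeats of called gene results under the alternatives other than single arrays left out, 794 kept direction and call, 88 lost the call and 0 reversed. A fit of only the groups compared gave 0 members for CPA in A3, in D3 and in D4, 7 for untreated A3 against wt and 1 for CPA-treated resistant clones against A3; its smaller number of arrays is part of its construction. For CPA in A3, median centring, all probe sets and the 4 farthest arrays left out each gave 1. For CPA in D3, array weights, further quantile normalization and the dimmest 30% left out each gave 2, and all probe sets and the 4 farthest arrays left out 0. For CPA in D4, the 4 farthest arrays left out gave 0. For the resistant clones against A3, array weights gave 3 untreated, and with CPA the replicate block and median centring gave 1, the variance trend and the dimmest genes left out 5. The causes were not tested.

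With single arrays left out, counts of called members ranged from 0 to 1 for CPA in wt, in A3 and in D3, 0 to 12 in D4 and 9 to 13 in the average; against wt, from 11 to 14, 9 to 13 and 10 to 14 in untreated D4, D3 and A3 and 11 to 13, 5 to 10 and 9 to 11 with CPA; against A3, 0 to 1 untreated and 0 to 3 with CPA. They were 0 to 0 for D4 against D3 and for the resistant-minus-sensitive CPA difference, and 0 to 1 for D4 against the other lines. The averaged count was 8 to 14 under the other alternatives. Deviations of arrays with the same replicate number correlated at -0.661 to 0.60 (median 0.053, 84 pairs). Those with other numbers correlated at -0.486 to 0.619 (median -0.013, 336 pairs). The pairs pool arrays across lines and treatments, so a pairing of CPA with control within a line was not tested. The replicate block gave 10 members for CPA in D4, and 11 in the average.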
